A study of Mus musculus with 49 samples.

Results

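Rspo2, Trps1, Bok, Nectin3, Coch and Rem2 were put together as genes of CA3 pyramidal neuron identity and were followed across the hippocampus of tau transgenic mice. They are 6 of the 11807 genes named on the array, and all 10 of their probe sets, of 22626 tested, were kept, with no filter on low values. The members were chosen with earlier results of these arrays in view, as genes high in CA3, so their differences between subfields are given as a description and carry no test. The arrays of DN mice entered that choice to a degree that is not known, and comparisons of the members with DN mice are therefore also given as a description, as differences with their SE and with no p. A count of calls in them stands beside the share of all probe sets called, and nothing is read from it or from the call of a single gene. Whether the rTg4510 and tTA arrays entered the choice as well is not known, and p-values between these genotypes carry that limit. Expression was measured on 49 Affymetrix HT-MG-430A arrays from 17 female mice aged 6.1 months, after laser capture of the pyramidal cells of CA3 and CA1 and of the granule cells of the dentate gyrus (DG). rTg4510 mice carried both a CaMKIIα-tTA transgene, which drives the tetracycline transactivator in forebrain excitatory neurons, and a TRE-htau responder for human tau with the P301L change. tTA mice carried the transactivator transgene alone, and double negative (DN) mice were littermates with neither. The tTA breeders were of the 129S6 strain and the htau breeders of FVB/N, and effects of the tau protein and of where its transgene sits in the genome cannot be told apart here. Mice are numbered within a genotype in the order of their animal numbers in the labels, and a mouse has the same number in each subfield. CA3 was profiled in 6 rTg4510, 5 tTA and 5 DN mice, CA1 in 5, 5 and 6, and DG in 6, 5 and 6. All levels are log2 RMA values, on which a difference of 1 is a 2-fold change, and are given as mean ± SD over n mice. A probe set is called dim where its group mean was below 5.039, the median over all probe sets.

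CA3 pyramidal neurons receive the mossy fibers of dentate granule cells on their proximal dendrites and send the Schaffer collaterals to CA1. Their identity is marked by a set of transcripts that granule cells and CA1 neurons carry at lower levels, and these include secreted factors, adhesion molecules, channels and transcription factors. Rspo2 encodes R-spondin 2, a secreted ligand that binds Lgr receptors and raises the response to Wnt. Nectin3 is an immunoglobulin-like adhesion molecule that pairs with nectin-1 at the junctions between mossy fiber terminals and CA3 dendrites. Trps1 is a GATA-type zinc finger repressor of transcription, Rem2 is a small GTPase of the RGK family that restrains voltage-gated calcium channels, Bok is a BCL2 family member that binds IP3 receptors, and Coch encodes cochlin, an extracellular matrix protein best known from the inner ear.

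The name of the group was first checked against the levels. Rspo2, Trps1, Bok and 3 of the 5 probe sets of Nectin3 were highest in CA3 in every genotype, with each CA3 array above each CA1 and DG array of the same genotype. Rem2 lay above DG in this way in all 3 genotypes but above CA1 only in DN mice, and Coch did not follow the name in any genotype. In all, 6, 6 and 7 of the 10 probe sets lay above CA1 without overlap in rTg4510, tTA and DN mice, where 2.59%, 3.58% and 6.39% of all probe sets did so. Above DG the count was 7 of 10 in each genotype, against 3.72%, 4.91% and 9.33% of all probe sets, and nothing is read from these shares because the members were chosen on them. A list of 7 other measured CA3 pyramidal genes was called higher in DN CA3 than in DN CA1 for 5 genes and higher than in DN DG for 6, with 1 gene, Mas1, lower in both. Over all probe sets 6.64% and 11.3% were called higher in these comparisons. This list too was chosen with earlier results of these data known, so it is no independent check of the name.

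**Figure D1:**
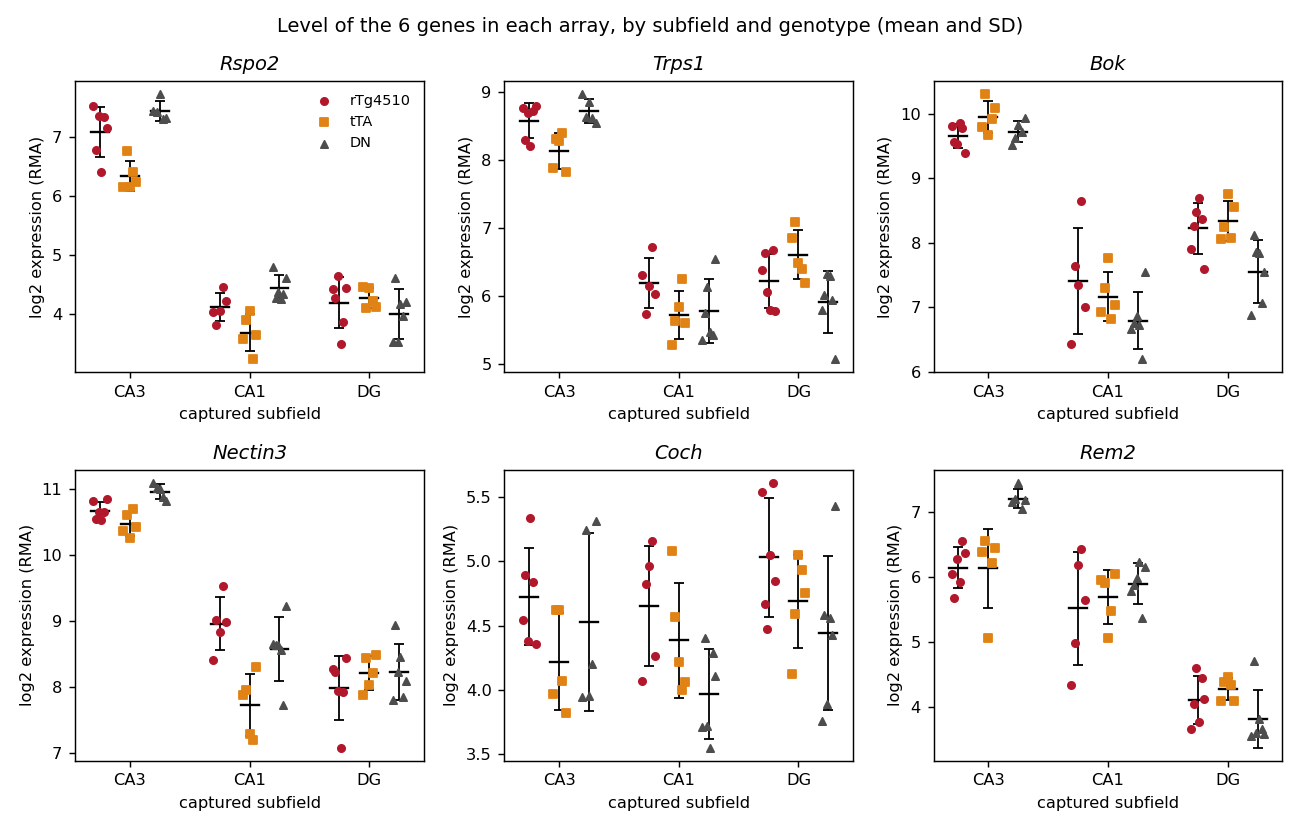
Log2 expression of the main probe set of each gene (y axis) in every array, by captured subfield (x axis), with rTg4510 (circles), tTA (squares) and DN (triangles) from left to right and the group mean ± SD in black. Rspo2, Trps1, Bok and Nectin3 stand highest in CA3 in each genotype, while Coch lies between 3.55 and 5.61 in all subfields, and each panel has its own scale, which does not start at 0.

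Rspo2 was measured above the dim range in CA3 alone. In CA3 the rTg4510 arrays ran from 6.4 through a median of 7.25 to 7.53, the tTA arrays read 6.16, 6.16, 6.23, 6.4 and 6.77, and the DN arrays read 7.31, 7.33, 7.42, 7.44 and 7.73. All tTA arrays lay below all DN arrays, while the rTg4510 arrays overlapped both. In CA1 its level was 4.11 ± 0.24 in rTg4510 (n = 5), 3.67 ± 0.31 in tTA (n = 5) and 4.43 ± 0.22 in DN mice (n = 6), and in DG it was 4.18 ± 0.43, 4.26 ± 0.17 and 4.0 ± 0.43 (n = 6, 5 and 6). These 6 groups were all dim, so that their order says little about the amount of transcript. CA3 exceeded CA1 by 3.02, 2.67 and 3.02 in rTg4510, tTA and DN mice, and exceeded DG by 2.91, 2.08 and 3.46. Among the 9 groups DN CA3 was highest, rTg4510 CA3 next and tTA CA3 after it, and the arrays of the higher pair overlapped.

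Trps1, the transcriptional repressor, held the same order with smaller steps. Its CA3 arrays ran from 8.20 through 8.70 to 8.79 in rTg4510 mice, read 7.81, 7.87, 8.27, 8.30 and 8.39 in tTA mice, and read 8.54, 8.61, 8.63, 8.85 and 8.96 in DN mice. Again the tTA arrays lay wholly below the DN arrays, and 4 of the 6 rTg4510 arrays were above every tTA array. The other layers were much lower, at 6.18 ± 0.37, 5.71 ± 0.36 and 5.77 ± 0.48 in CA1 and at 6.22 ± 0.40, 6.60 ± 0.36 and 5.90 ± 0.46 in DG of rTg4510, tTA and DN mice. The CA1 and DG arrays overlapped in each genotype, in tTA mice by a single CA1 array. CA3 exceeded DG by 2.36 in rTg4510, 1.53 in tTA and 2.82 in DN mice.

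Nectin3 has 5 probe sets, which fall into 2 kinds. Probe sets 1423331_a_at, 1448673_at and 1417319_at were bright, with means over all 49 arrays of 9.066, 8.781 and 7.679. The remaining 1421133_at and 1421132_at, both designed on a different RefSeq transcript from 1448673_at and 1417319_at, averaged 3.9 and 3.221 and were dim in all 9 groups. Neither dim probe set separated CA3 from the other layers, with CA3 to DG differences between −0.23 and 0.34. Results for Nectin3 below therefore rest on the first 3 probe sets, and what the other pair measured is not known. The brightest, 1423331_a_at, ran from 10.53 through 10.65 to 10.84 in rTg4510 CA3, read 10.26, 10.36, 10.43, 10.61 and 10.69 in tTA CA3, and read 10.82, 10.87, 11, 11.01 and 11.09 in DN CA3. Every tTA array was below every DN array, and only the highest rTg4510 array entered the DN range. The level in CA1 was 8.96 ± 0.40 in rTg4510, 7.72 ± 0.47 in tTA and 8.57 ± 0.48 in DN mice, and that in DG was 7.98 ± 0.48, 8.21 ± 0.26 and 8.23 ± 0.43. CA1 thus stood above DG by 0.95 in rTg4510 and 0.34 in DN mice and differed from it by −0.49 in tTA mice.

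**Figure D2:**
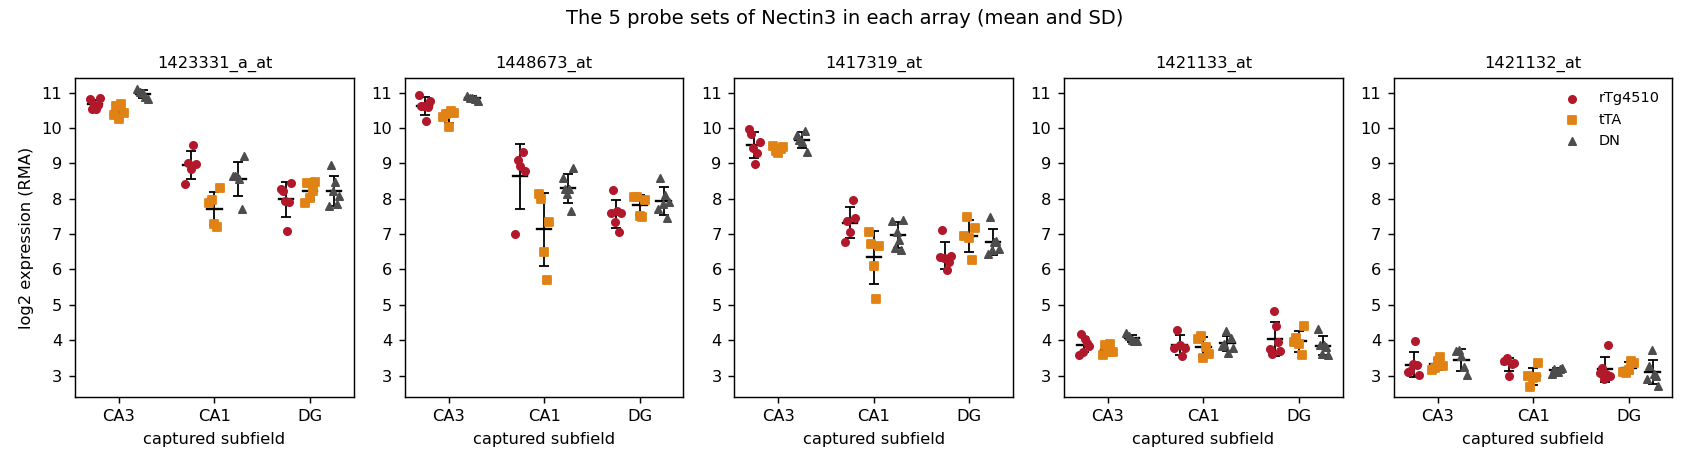
Log2 expression (y axis, the same in all panels) of each of the 5 Nectin3 probe sets in every array by captured subfield (x axis), with rTg4510 (circles), tTA (squares) and DN (triangles) from left to right and the group mean ± SD in black. The first 3 panels share the high CA3 level and the low tTA level in CA1, and the last 2 stay at group means from 2.98 to 4.06 throughout.

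Rem2, the calcium channel regulator, averaged higher in CA3 than in CA1 by a smaller margin in the transgenic mice than in DN mice. Its CA3 arrays ran from 5.68 through 6.16 to 6.56 in rTg4510 mice, read 5.06, 6.22, 6.38, 6.45 and 6.56 in tTA mice, and read 7.05, 7.15, 7.19, 7.20 and 7.45 in DN mice. All arrays of both transgenic groups lay below the lowest DN array, and the tTA value of 5.06 stood apart from its group. In CA1 the groups averaged 5.52 ± 0.86, 5.68 ± 0.42 and 5.90 ± 0.31 in rTg4510, tTA and DN mice, and their ranges overlapped. CA3 exceeded CA1 by 0.64, 0.45 and 1.33 in the same order of genotypes. DG was dim at 4.10 ± 0.36, 4.27 ± 0.17 and 3.81 ± 0.45, and CA3 exceeded it by 2.04, 1.87 and 3.41.

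Bok differed from the others in that its tTA level in CA3 was not below its DN level. The CA3 arrays ran from 9.39 through 9.67 to 9.86 in rTg4510 mice, read 9.67, 9.80, 9.91, 10.08 and 10.30 in tTA mice, and read 9.51, 9.62, 9.71, 9.82 and 9.93 in DN mice, so all 3 groups overlapped. DG came second, at 8.22 ± 0.40, 8.34 ± 0.31 and 7.55 ± 0.49, and CA1 was lowest, at 7.41 ± 0.82, 7.16 ± 0.38 and 6.79 ± 0.44, in rTg4510, tTA and DN mice. The rTg4510 CA1 arrays were spread from 6.43 to 8.64, more widely than any other group of this probe set.

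Coch was dim in every group, with means from 3.96 in DN CA1 to 5.03 in rTg4510 DG. In CA3 it averaged 4.73 ± 0.37 in rTg4510, 4.22 ± 0.38 in tTA and 4.53 ± 0.69 in DN mice, and the DN arrays fell at 3.94, 3.95, 4.20, 5.24 and 5.31. CA3 minus DG was −0.31 in rTg4510, −0.47 in tTA and 0.10 in DN mice, and CA3 minus CA1 was 0.06, −0.17 and 0.57, with overlap in each case. On these arrays Coch was therefore not marked by CA3, and it is kept below only as a member of the list.

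The upstream sequence is shown for 3 members, Nectin3 and Rem2, which averaged lower in tTA than in DN CA3, and Bok, which did not. Rspo2 and Trps1 had no window, and no link between the sequences and these differences was tested. Each sequence is the 250 bases before the transcription start that the RefSeq table on GRCm38.p6 gives, 5′ to 3′ on the strand of the gene. Capitals mark the GC box, GGGCGG on either strand. The E-box CANNTG, on either strand, was searched too. Nectin3 lies on chromosome 16 at 46387665 to 46498535, Rem2 on chromosome 14 at 54476100 to 54480434 and Bok on chromosome 1 at 93685575 to 93695770. The window of Nectin3 lies inside the span of the gene, so the start in the table is not the outermost one.
Nectin3, chr16:46496968-46497217, minus strand: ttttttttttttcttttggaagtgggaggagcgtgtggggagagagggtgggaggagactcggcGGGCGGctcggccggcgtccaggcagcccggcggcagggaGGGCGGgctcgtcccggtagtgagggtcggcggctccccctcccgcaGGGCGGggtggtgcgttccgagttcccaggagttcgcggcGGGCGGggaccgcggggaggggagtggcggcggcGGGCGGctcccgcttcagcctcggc
Rem2, chr14:54475850-54476099, plus strand: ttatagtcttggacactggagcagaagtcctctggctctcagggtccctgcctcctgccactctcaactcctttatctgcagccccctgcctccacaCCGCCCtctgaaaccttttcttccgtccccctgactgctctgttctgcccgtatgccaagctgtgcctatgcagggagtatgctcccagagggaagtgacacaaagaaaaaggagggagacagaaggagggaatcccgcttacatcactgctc
Bok, chr1:93685325-93685574, plus strand: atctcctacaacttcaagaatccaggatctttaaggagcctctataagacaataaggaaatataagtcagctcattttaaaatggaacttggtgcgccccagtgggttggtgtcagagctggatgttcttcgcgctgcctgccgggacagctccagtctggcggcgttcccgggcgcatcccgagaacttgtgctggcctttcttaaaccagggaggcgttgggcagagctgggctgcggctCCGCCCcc
The Nectin3 window held 5 GC boxes and was 73.2% G or C, while the Rem2 and Bok windows held 1 GC box each and were 55.6% and 55.2% G or C. No E-box was found in the 3 windows. Of all 32851 windows of this length in the table, 32.7% held a GC box and 66.2% an E-box, with a median of 52.4% G or C. The matches are a description, and whether these windows stand apart from others was not tested. Coch, on chromosome 12 at 51593283 to 51606619, also matched a window, and Rspo2 (chromosome 15, 43020788 to 43171594) and Trps1 (chromosome 15, 50654757 to 50890631) are given by position alone.

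The first question is how these genes differed in CA3, where most were highest, between mice with the transactivator transgene alone and mice with neither transgene. The arrays of Rspo2, Rem2, Trps1 and the brightest pair of Nectin3 probe sets lay lower in tTA than in DN mice with no overlap, and the arrays of Bok and Coch overlapped. Rspo2 differed by −1.10 (SE 0.185, a 2.15-fold lower level) and Rem2 by −1.07 (SE 0.233, 2.11-fold lower). Nectin3 differed by −0.49 in 1423331_a_at (SE 0.0953), by −0.52 in 1448673_at (SE 0.116) and by −0.25 in 1417319_at (SE 0.158), the last with overlap. Trps1 differed by −0.59 (SE 0.146, 1.5-fold lower), Bok by 0.23 (SE 0.125) and Coch by −0.30 (SE 0.284). Of the 10 probe sets, limma called 5 lower (adjusted p below 0.05 over all probe sets) and 0 higher, those of Rspo2, Rem2 and Trps1 and the brightest pair of Nectin3, while 4.97% of all probe sets were called lower and 9.09% in either direction. The arrays of 6 probe sets, these 5 and the dim 1421133_at of Nectin3, lay wholly below the DN arrays, as did 5.67% of all probe sets.

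Without the low array of tTA mouse 3 the difference of Rem2 was −0.81. Trps1 was not called without the array of tTA mouse 1 (difference −0.52) or 5 (−0.51) or of DN mouse 1 (−0.52) or 4 (−0.55), and in the model of all 9 groups with the mouse as a block neither Trps1 nor Nectin3 was called.

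Marker genes of other cells moved in the same arrays. In CA3, 9 of 16 microglial and 6 of 9 astrocyte genes were called higher in tTA than in DN mice, and the mean level of the microglial list was 5.06 to 5.73 in tTA arrays against 4.57 to 4.85 in DN arrays. Group means of 8 of the 16 microglial genes were dim in tTA mice and 11 of 16 in DN mice. The astrocyte list averaged 8.21 to 8.71 in tTA arrays and 7.68 to 8.0 in DN arrays, and 1 of 10 oligodendrocyte and 2 of 11 endothelial and mural genes were called higher and 0 of 13 interneuron genes were called. The log2 ratio of the 3-prime to the 5-prime probe sets of Actb, a measure of RNA integrity, was −0.64 ± 0.18 in tTA CA3 and −0.45 ± 0.18 in DN CA3. With this ratio as a covariate the difference was −0.99 for Rspo2, −1.01 for Rem2 and −0.50 for Trps1, the last no longer called. The part of these transcripts in the differences was not tested, and in a captured layer fewer cells of a type and less RNA per cell cannot be told apart.

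**Figure D3:**
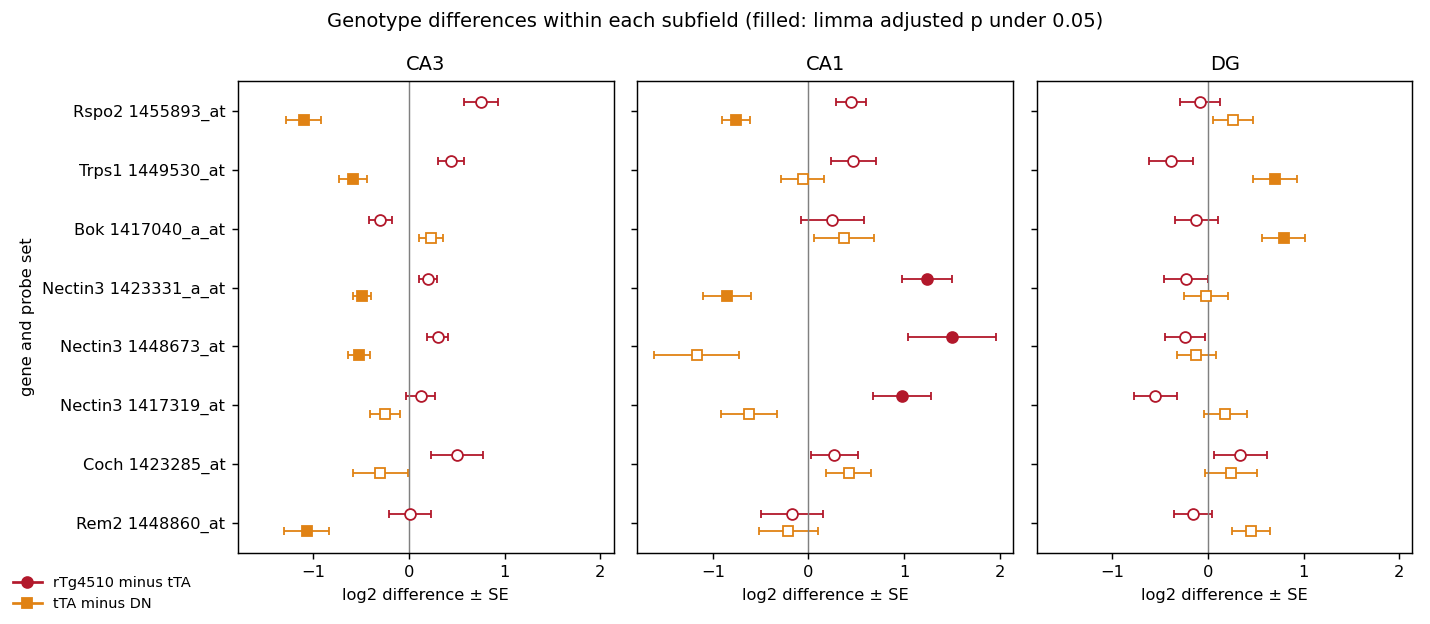
Log2 differences ± SE (x axis) of the 8 brighter probe sets (rows) in CA3, CA1 and DG, for rTg4510 minus tTA (circles) and tTA minus DN (squares), with filled symbols where the limma adjusted p was below 0.05. Squares are a description, since DN arrays entered the choice of the genes. In CA3 the filled squares for Rspo2, Trps1, Nectin3 and Rem2 lie left of 0, in CA1 the filled circles of Nectin3 lie right of it, and in DG the filled squares of Trps1 and Bok lie right of it.

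**Figure D4:**
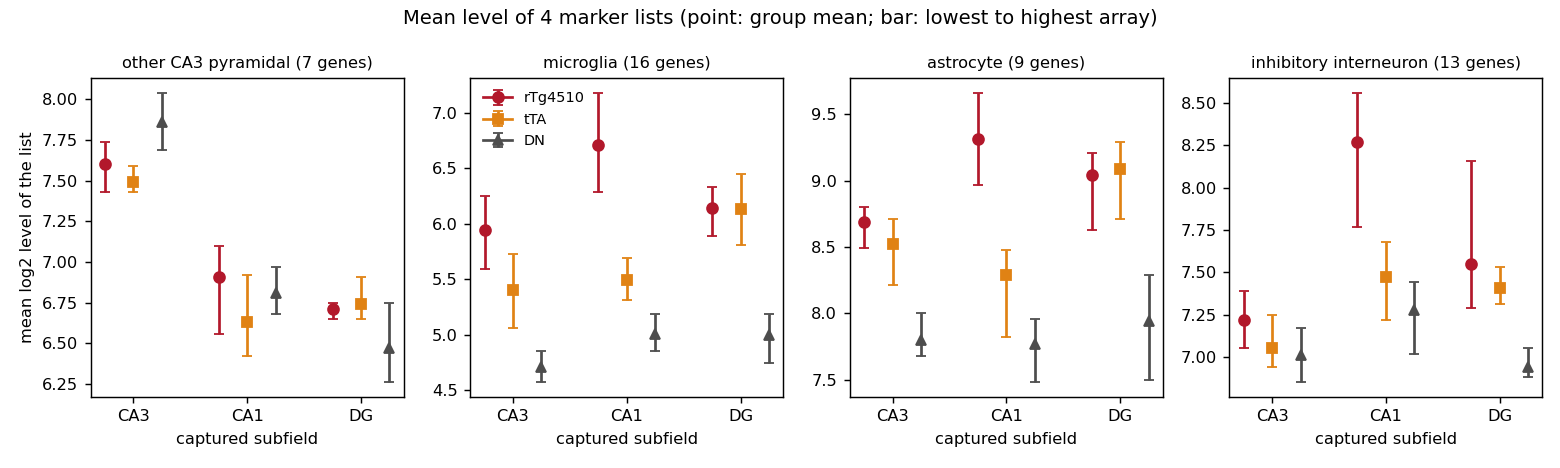
Mean log2 level of 4 lists of marker genes (y axis) by captured subfield (x axis), with rTg4510 (circles), tTA (squares) and DN (triangles) from left to right, where points are group means and bars run from the lowest to the highest array. Microglial genes in CA3 lie at 5.59 to 6.25 in rTg4510, 5.06 to 5.73 in tTA and 4.57 to 4.85 in DN arrays, and the interneuron list stands highest in rTg4510 CA1.

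Between tTA and DN mice in CA3, genes of the families of the members were called in both directions. Over all probe sets 4.97% were called lower and 4.12% higher. Of 54 genes of R-spondin and Wnt signaling, 1 was called higher and 2 lower: Rspo1, a second R-spondin, differed by 0.89 (5.19 in tTA and 4.30, which is dim, in DN), opposite in sign to Rspo2, while the Wnt receptor gene Fzd3 differed by −0.62 and Gsk3b, a kinase of the β-catenin destruction complex, by −0.57. The R-spondin receptors Lgr5 and Lgr6 and the ubiquitin ligase gene Rnf43 were not called. Lgr5 (2.84 in tTA and 2.72 in DN) and Rnf43 (3.07 and 3.19) were dim in both groups, so that the lack of a call says little about them. Of 21 genes of the RGK and calcium channel list 3 were called, all lower, namely the R-type channel gene Cacna1e (−1.08) and the auxiliary subunit genes Cacna2d3 (−0.64) and Cacna2d1 (−0.53). In the adhesion list 2 of 12 were lower, Cadm3 (−0.58), a synaptic cell adhesion molecule, and Cdh2 (−0.46), which encodes N-cadherin. The 17 BCL2 family and IP3 receptor genes held 2 that were higher, the BH3-only genes Hrk (0.95) and Bad (0.39). Among 12 matrix genes 2 were higher, Hapln1 (0.95) and Bcan (0.92), components of perineuronal nets, and among 15 GATA factors and partners of Trps1 only Gata2 was called (0.57). Of the 7 other CA3 pyramidal genes 2 were lower, the potassium channel gene Kcnq5 (−0.56) and Mas1 (−0.93), a receptor gene for which CA3 of DN mice was itself the lowest of the captured fields. The medians of these 7 lists ran from −0.32 for the other CA3 genes to 0.09 for the BCL2 list, beside 0.0284 over all probe sets and −0.54 for the main probe sets of the 6 members.

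The second question is how mice with mutant tau and the transactivator differed in CA3 from mice with the transactivator alone. No probe set of the 6 genes was called between rTg4510 and tTA mice, where 1.13% of all probe sets were. By limma, 5 of the 10 had an unadjusted p below 0.05, as did 3353 of all 22626 probe sets. These 5 include the brightest pair of Nectin3 probe sets, which are not independent. For 0 of the 10 were the groups free of overlap, against 1.9% of all probe sets. The nearest to the threshold was Rspo2, with a difference of 0.75 (SE 0.177, 1.68-fold, adjusted p = 0.0506), which was called in 8 of 20 alternatives run, with adjusted p-values from 0.00782 to 0.156. It was called without the array of rTg4510 mouse 4 (difference 0.89, adjusted p = 0.00782) or 2 (adjusted p = 0.0467) or tTA mouse 2 (0.0411). The remaining differences were 0.44 for Trps1 (SE 0.139, adjusted p = 0.139), −0.30 for Bok (SE 0.12, adjusted p = 0.255), 0.20, 0.30 and 0.12 for the bright probe sets of Nectin3, 0.50 for Coch and 0.01 for Rem2 (SE 0.223). The only gene called in the 54 of the Wnt list was Fzd3, at 0.55 (adjusted p = 0.0405), and 0 genes were called in the other 5 pathway lists or among the other CA3 genes. In these arrays 4 of 16 microglial and 1 of 9 astrocyte genes were called higher in rTg4510 mice.

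Between rTg4510 and DN mice in CA3 the arrays of 1 of the 10 probe sets, that of Rem2, did not overlap, as for 2.08% of all probe sets in the lower direction. Rem2 differed by −1.06 (SE 0.223, 2.09-fold lower), and it was the 1 probe set called, where 3.12% of all probe sets were called and 1.2% called lower. The call was lost without the array of DN mouse 4 (difference −1.0) and with the Actb ratio as a covariate (−1.0). Rspo2 stood at −0.35, Trps1 at −0.14, Nectin3 1423331_a_at at −0.29, Bok at −0.06 and Coch at 0.20. In the same arrays 11 of 16 microglial, 6 of 9 astrocyte and 1 of 11 endothelial and mural genes were called higher in rTg4510 mice, and their part in the Rem2 difference was not tested. This comparison uses the same DN arrays as that of tTA with DN, and the same rTg4510 arrays as that of rTg4510 with tTA.

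In CA1, Nectin3 was the one member called between rTg4510 and tTA mice. Its arrays on 1423331_a_at read 8.41, 8.83, 8.99, 9.02 and 9.53 in rTg4510 CA1, against 7.20, 7.28, 7.87, 7.95 and 8.30 in tTA CA1, with no overlap, as for 3.39% of all probe sets in the higher direction. On 1448673_at they read 7.01, 8.79, 8.93, 9.08 and 9.33, against 5.71, 6.49, 7.35, 7.98 and 8.12, and only the array of rTg4510 mouse 1 entered the tTA range. On 1417319_at they read 6.79, 7.05, 7.38, 7.46 and 7.95, against 5.17, 6.10, 6.67, 6.72 and 7.07, and the lowest pair of rTg4510 arrays lay below the highest tTA array. All 3 probe sets were called higher in rTg4510 mice, with 0 of the other 7, where 6.01% of all probe sets were called higher and 10.6% in either direction. They share 1 gene and are not independent. A low tTA level in CA1 widens the excess of CA3 over CA1, on which the members may have been chosen in tTA mice too. The p-values here carry that limit, also where a call held in each alternative. The differences were 1.24 (SE 0.262, 2.35-fold, adjusted p = 0.00697), 1.5 (SE 0.459, adjusted p = 0.0469) and 0.98 (SE 0.304, adjusted p = 0.0491). The first was called in each alternative run, with adjusted p-values from 0.00015 to 0.0381, and its value without 1 array lay between 1.09 and 1.38. The calls of the other pair were often lost, as 1448673_at was not called in 11 of 19 alternatives and 1417319_at in 12 of 19, with adjusted p-values up to 0.162 and 0.127. Single arrays whose removal ended the call were those of rTg4510 mice 2, 3, 5 and 6 and tTA mice 3, 4 and 5 for 1448673_at (adjusted p from 0.0652 to 0.111, differences from 1.14 to 1.55), and those of rTg4510 mice 2, 5 and 6 and tTA mice 2 to 5 for 1417319_at (adjusted p from 0.0532 to 0.117, differences from 0.69 to 1.08).

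Against DN mice, whose 1423331_a_at arrays ran from 7.72 through 8.64 to 9.22, the Nectin3 difference was 0.38 in rTg4510 CA1 (SE 0.251), with overlap. The tTA level was the low one, differing from DN by −0.85 (SE 0.251), −1.17 (SE 0.44) and −0.62 (SE 0.292) in the bright probe sets, all with overlap, of which limma called the first. That call was lost without the array of tTA mouse 3 or 4 or of DN mouse 1, 2, 3, 4 or 6, and with the Actb ratio as a covariate (difference −0.76), which averaged −0.70 in tTA CA1 and −0.37 in DN CA1. The 3 comparisons share their arrays in pairs, so the low tTA level enters both of the called differences.

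The CA1 layer of rTg4510 mice also differed from that of tTA mice in its other transcripts. All 3 measured CA1 pyramidal genes were called lower, and the mean level of that list was 6.73 to 8.22 in rTg4510 arrays against 8.57 to 9.51 in tTA arrays. Higher in rTg4510 mice were 11 of 16 microglial, 7 of 9 astrocyte, 9 of 13 interneuron, 6 of 11 endothelial and mural and 4 of 10 oligodendrocyte genes, with 1 interneuron gene lower. The microglial list averaged 6.29 to 7.18 in rTg4510 arrays and 5.31 to 5.69 in tTA arrays, and the interneuron list 7.77 to 8.56 and 7.22 to 7.68. Of the 7 other CA3 pyramidal genes, Plagl1, a zinc finger transcription factor gene, was higher by 1.40 and Iyd by 0.43, while Dkk3 was lower at −0.66, and the mean of that list overlapped between rTg4510 arrays (6.56 to 7.10) and tTA arrays (6.42 to 6.92). For CA2, the field between CA3 and CA1, 0 of 4 genes were called, with list means of 6.47 to 8.51 in rTg4510 and 5.82 to 8.40 in tTA arrays. The part of these transcripts in the Nectin3 difference was not tested.

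Other adhesion genes were higher in the same comparison. Of 12 in the nectin and SynCAM list 5 were called, all higher in rTg4510 CA1, including Nectin2 (0.70, dim), the α-catenin gene Ctnna1 (0.69), Cadm1 (0.64) and the tight junction scaffold gene Tjp1 (0.42), with a list median of 0.24 beside −0.0314 over all probe sets. Nectin1, the partner of nectin-3 at the mossy fiber junction, was dim in all 9 groups and was not called. Of the 54 Wnt genes 7 were higher and 2 lower, with Wnt5a at 1.49, Sfrp2, a secreted Wnt inhibitor, at 1.14, Fzd7 at 1.14 and Fzd6 at 0.94. Of the 21 RGK and calcium channel genes 2 were higher and 4 lower, among them Gem, an RGK relative of Rem2, at 1.34 (4.68 in rTg4510 and 3.35 in tTA, both dim), and the kinase gene Camk2b at −0.85. The BCL2 list had 2 of 17 higher and 1 lower, the anti-apoptotic Bcl2a1a (1.86) and Bcl2 (0.63), and Pmaip1 (−0.85), which encodes the BH3-only protein Noxa. Bok itself stood at 0.25 (SE 0.327, adjusted p = 0.698), Rem2 at −0.17 (SE 0.325, adjusted p = 0.802), Trps1 at 0.47 (SE 0.238, adjusted p = 0.236), Coch at 0.27 (SE 0.244, adjusted p = 0.554) and Rspo2 at 0.44 (SE 0.156, adjusted p = 0.0863).

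Rspo2 was the member whose CA1 arrays did not overlap between tTA and DN mice. Its arrays read 3.23, 3.57, 3.64, 3.89 and 4.04 in tTA CA1 and ran from 4.24 through 4.35 to 4.8 in DN CA1. Such a gap was found for 6.41% of all probe sets in the lower direction. The difference was −0.76 (SE 0.149), at a level that was dim in both groups, so its size is not exact. With Nectin3 1423331_a_at it made 2 of 10 probe sets called, both lower, where 8.85% of all probe sets were called lower and 16.2% in either direction. In these arrays 5 of 16 microglial, 4 of 9 astrocyte, 5 of 10 oligodendrocyte, 2 of 13 interneuron and 2 of 11 endothelial and mural genes were called higher in tTA mice and 1 of 3 CA1 pyramidal genes lower, and their part in the Rspo2 and Nectin3 differences was not tested. Between rTg4510 and DN mice in CA1 only Coch was called, at 0.69 (4.65 in rTg4510 and 3.96 in DN, SE 0.234), 1 of 10 probe sets where 11.1% of all were called higher and 23.4% in either direction. Its arrays overlapped and were dim, and the call was lost without rTg4510 mouse 2, 3 or 5 or DN mouse 1, 3, 4 or 6. In the same comparison 14 of 16 microglial, 9 of 9 astrocyte, 9 of 10 oligodendrocyte, 8 of 11 endothelial and mural and 9 of 13 interneuron genes were called higher in rTg4510 mice and 3 of 3 CA1 pyramidal genes lower, and their part in the Coch difference was not tested.

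In DG, Bok and Trps1 averaged higher in tTA than in DN mice. Bok read 8.05, 8.08, 8.25, 8.55 and 8.75 in tTA DG and ran from 6.88 through 7.69 to 8.12 in DN DG. Trps1 read 6.19, 6.39, 6.48, 6.85 and 7.08 in tTA DG and ran from 5.07 through 5.97 to 6.32 in DN DG. The groups overlapped at 1 or more arrays for both genes. Bok differed by 0.79 (SE 0.229, 1.72-fold) and Trps1 by 0.70 (SE 0.23, 1.62-fold), and they made 2 of 10 probe sets called, where 7.22% of all were called higher and 16.7% in either direction. The call for Bok was lost without tTA mouse 3 or 5 or DN mouse 1 or 5, and that for Trps1 without tTA mouse 1, 2, 3 or 4 or DN mouse 1, 2, 5 or 6, with values from 0.53 to 0.75. Of the 17 BCL2 family and IP3 receptor genes 6 were called higher and 1 lower in tTA DG, the higher ones led by Bcl2a1a (1.40), Pmaip1 (1.34) and Bak1 (0.79), and the lower one Bcl2l11 (−0.79). Bak1, a pore-forming relative of Bok, was dim in both groups (4.73 in tTA and 3.95 in DN). Among the other CA3 genes, Dkk3 (1.18), Socs2 (0.70) and Kcnq5 (0.66) were higher and Mas1 (−0.60) lower, while 10 of 16 microglial, 8 of 9 astrocyte, 4 of 10 oligodendrocyte, 2 of 13 interneuron and 3 of 11 endothelial and mural genes were higher. Of 6 dentate granule genes 1 was called higher and 2 lower. Called lower were also 2 of 4 CA2 and 1 of 3 CA1 pyramidal genes, and 0 of 3 hilar mossy cell genes were called. The Actb ratio averaged −0.61 in tTA DG and −0.30 in DN DG, and with it as a covariate the difference was 0.96 for Bok and 0.43 for Trps1, neither of them called. The part of these transcripts in the differences was not tested.

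None of the 6 genes was called between rTg4510 and tTA mice in DG: 0 of 10 probe sets passed, where 0.782% of all did. An unadjusted limma p below 0.05 was found for 1 of the 10, Nectin3 1417319_at at −0.55 (adjusted p = 0.242). The same held for 3420 of all 22626 probe sets. Between rTg4510 and DN mice 0 of 10 passed, against 8.86% of all probe sets. The largest differences here were those of Bok at 0.67 (SE 0.218) and Coch at 0.59 (SE 0.26).

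Differences of a genotype difference between subfields come from the model of all 9 groups. They are built from the differences between subfields on which the members were chosen, so they are given as values with no p, and nothing is read from their counts. For rTg4510 against tTA mice, the Nectin3 difference in CA3 minus that in CA1 was −1.01 in 1423331_a_at (SE 0.291), −1.20 in 1448673_at (SE 0.415) and −0.84 in 1417319_at (SE 0.329). The first was the 1 probe set of 10 called, where 2.19% of all probe sets were called lower and 3.88% in either direction. The call was lost without any of rTg4510 mice 2, 3, 5 and 6 or tTA mice 2 to 4. CA3 minus DG gave 0 calls of 10 for the same pair of genotypes, with 0.00884% of all probe sets called. The largest of these values were 0.83 for both Rspo2 and Trps1 and 0.67 for Nectin3 1417319_at.

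For tTA against DN mice, CA3 minus DG was −1.54 for Rem2 (SE 0.347), −1.38 for Rspo2 (SE 0.258) and −1.29 for Trps1 (SE 0.296), the 3 probe sets of 10 called, where 1.24% of all probe sets were called in either direction and 0.57% lower. In DG, Rspo2 and Rem2 were dim in all genotypes. Without tTA mouse 1 or DN mouse 1 the Trps1 value was −1.16 and −1.20, without tTA mouse 3 the Rem2 value was −1.23, and none of these was called. CA3 minus CA1 gave 0 calls of 10, with 0.72% of all probe sets called. The largest of these values was that of Rem2, at −0.88.

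The genes whose group means ran most like those of each member were found by Pearson r over the 9 groups, among 2161 named genes with a range of at least 1.0 between groups. The 9 means share arrays and mice, and each r is a description. For Rspo2 they were Cmpk2 (r = 0.987), Magi3 (0.985), a synaptic scaffold gene, and Rerg (0.979), a Ras-like GTPase gene. For Trps1 they were Homer3 (0.991), a postsynaptic scaffold gene that is also on the list of other CA3 genes, Mgat4c (0.987) and Sema5b (0.986), a semaphorin. For Nectin3 they were Pfkfb3 (0.986), a regulator of glycolysis, Reep5 (0.981) and Fbxo45 (0.981). For Rem2 they were Kcnq5 (0.983), also on that list, Armh4 (0.978) and St8sia5 (0.967), and for Bok they were Cradd (0.979), Sgk1 (0.972) and Parva (0.963). Coch had looser neighbours, Sqor (0.911), Blnk (0.87), an adaptor gene of B cells, and Rdx (0.867), all with their highest group means in DG of rTg4510 mice, for Blnk level with tTA mice. Among the members themselves Rspo2 and Trps1 were most alike (0.98), Rspo2 and Nectin3 next (0.97), and Coch stood apart, at −0.01 with Rspo2 and −0.39 with Rem2.

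**Figure D5:**
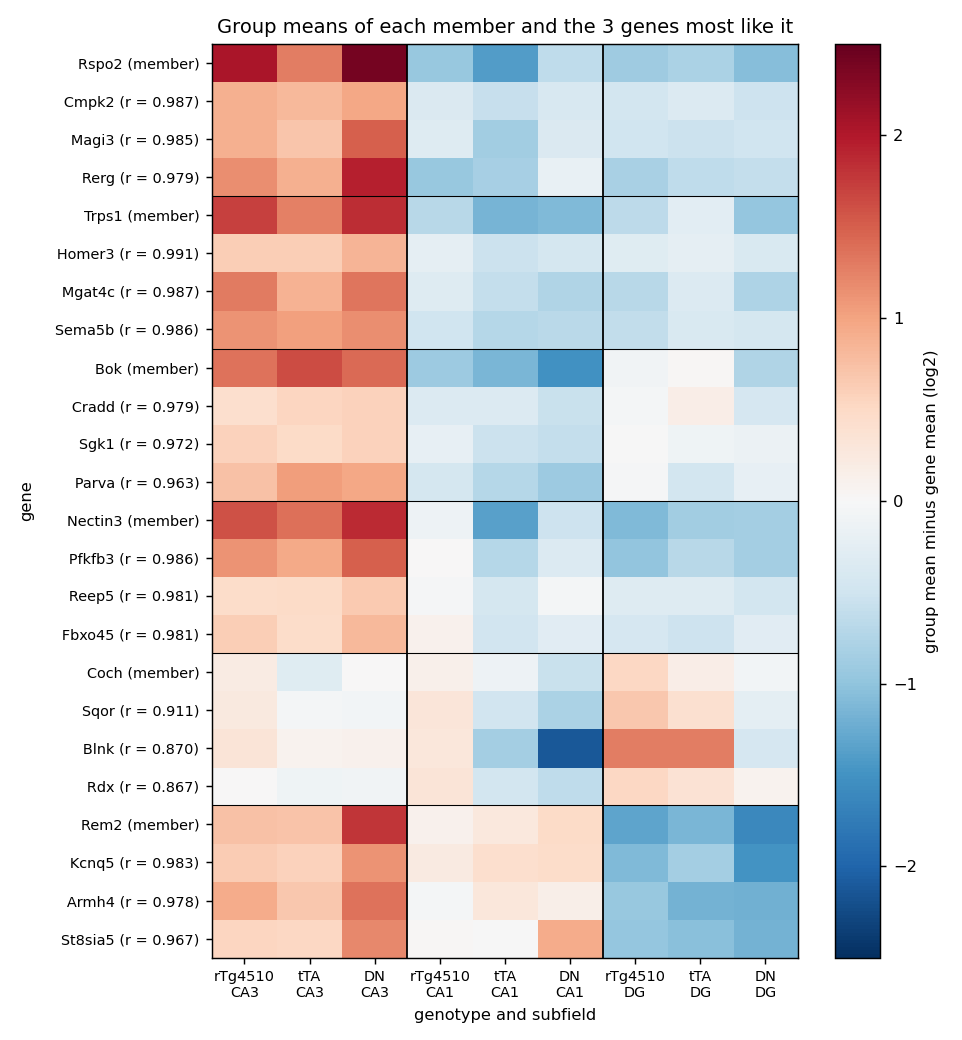
Group means of the main probe set of each member and of the 3 genes most like it (rows), less the mean of that row over the 9 groups (color, log2 units), in rTg4510, tTA and DN mice by subfield (columns). The first 3 columns, CA3, are raised for Rspo2, Trps1, Bok, Nectin3, Rem2 and their neighbours, and the Coch block is highest in DG.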

How the data were processed

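Log2 expression values were used as deposited by the authors, one column per array, who hybridized amplified RNA of each capture to its own array and summarized probe sets by RMA, per the submitters' processing notes. Anti-log values are named in the methods, whereas the table runs from 1.944 to 13.826 with array medians of 4.947 to 5.062 and is on the log2 scale. Which arrays were normalized together and when each was hybridized are not given in the sources used here, so batches could not be examined. The animal numbers of DN mice form a block apart from those of the transgenic mice, whose numbers interleave. Of 22716 probe sets, 90 controls were left out. Gene symbols came from the platform annotation (18003 probe sets with 1 symbol, 287 with several and 4336 unnamed here), and no 2 arrays were identical. The replicate is the mouse, and the number of arrays limits the precision.

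Genotypes were compared within each subfield by limma 3.58.1 in R 4.3.3, with 3 genotype groups in the fit, and differences between subfields by a model of all 9 groups with the mouse as a random block. Benjamini-Hochberg adjustment of the p-values ran over all 22626 probe sets, with calls at 0.05. The animal number in the titles pairs the subfields of a mouse: the consensus correlation was 0.117, and over 47 pairs of arrays of the same mouse the residuals correlated with a median of 0.119 (range −0.148 to 0.323), against −0.0031 for different mice. The text names all member probe sets, the main one of a gene being that with the highest mean over 49 arrays, up to 4 of the largest called genes of a list, with a further few chosen after their values were seen (Mas1 and the receptor and partner genes named as not called), and the 3 genes most like each member. The members and lists were chosen with earlier results of these data known. The scripts were tested on simulated data. Alternatives were another normalization, array weights, a trended prior, a filter on dim probe sets, the methods' least significant difference test on log2 and anti-log values, the Actb ratio as a covariate, other samples or blocks in the fit, and each mouse left out.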

Additional observations from a re-analysis of the deposited data

Results flagged for a closer look

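Of 90 groups of arrays, 10 probe sets in 9 groups each, 7 held an array whose distance to the nearest other array was large against the range of its group, and chance alone flags about 1 in 20 groups. Nectin3 1448673_at was 7.01 in CA1 of rTg4510 mouse 1, below its nearest neighbour at 8.79, and without that array the rTg4510 minus tTA difference was 1.9 (limma adjusted p = 0.00916). Rem2 was 5.06 in CA3 of tTA mouse 3, with the next array at 6.22, and 4.7 in DG of DN mouse 2, with the next at 3.81. Nectin3 1417319_at was 7.11 in DG of rTg4510 mouse 2 and 7.48 in DG of DN mouse 2, each the highest of its group. The DG array of DN mouse 2 was also the highest of its group for Rspo2 (4.61), Bok (8.12) and Nectin3 1423331_a_at (8.94) and 1448673_at (8.59). It was not the highest for Trps1 (6.01) or Coch (4.58). This array enters each comparison with DN DG. The dim Nectin3 1421132_at was 3.97 in CA3 of rTg4510 mouse 4 and 3.87 in DG of rTg4510 mouse 5.

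In 4 cases limma called a genotype difference as varying between subfields, and these values hold the differences between subfields on which the members were chosen, so they are a description. The rTg4510 minus tTA difference of Nectin3 1423331_a_at in CA3 minus that in CA1 was −1.01. The tTA minus DN difference in CA3 minus that in DG was −1.54 for Rem2, −1.38 for Rspo2 and −1.29 for Trps1.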

How the results depend on the processing

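Of 251 alternative counts of called member probe sets, 181 stayed within 1.5 times the reported count and 70 did not. Over 19 named results, 363 alternatives gave 269 with the same call, 86 with the call lost, 8 with a call gained and 0 with the sign turned. Nectin3 1423331_a_at (rTg4510 against tTA in CA1) was called in every alternative run, on arrays that may have entered the choice of the members. Counts that involve DN mice or differences between subfields share arrays with the choice of the members, and nothing is read from how they hold. For rTg4510 against tTA in CA3 the count was 1 in place of 0, the call being Rspo2, with quantile normalization, array weights, the trended prior, dim probe sets left out, or the model of 9 groups, and 0 to 2 without 1 mouse. For tTA against DN in CA3 it was 2 in place of 5 in the model of 9 groups with mouse as a block, and 4 to 5 without 1 mouse. For rTg4510 against DN in CA3 it was 2 with array weights and 0 with the Actb covariate in place of 1, and 0 to 1 without 1 mouse. For rTg4510 against tTA in CA1 it was 1 in place of 3 with only these genotypes, with either least significant difference test or with the Actb covariate, and 1 to 3 without 1 mouse. For tTA against DN in CA1 it was 1 in place of 2 with either least significant difference test or the Actb covariate, and 1 to 3 without 1 mouse. For rTg4510 against DN in CA1 it was 0 in place of 1 with quantile normalization, dim probe sets left out, either least significant difference test or the Actb covariate, and 0 to 2 without 1 mouse. For tTA against DN in DG it was 1 with array weights or the least significant difference test on log2 values and 0 with that on anti-log values or the Actb covariate, in place of 2, and 0 to 2 without 1 mouse. For rTg4510 against DN in DG it was 1 in place of 0 with dim probe sets left out, and 0 to 1 without 1 mouse. The causes were not tested.

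The pairing of subfields by mouse touched the differences between subfields. For rTg4510 minus tTA in CA3 minus CA1 the count was 0 in place of 1 without the replicate block, with the mouse as a fixed block or with array weights, and 0 to 2 without 1 mouse. Nectin3 1423331_a_at then stood at −1.03 without the block and −0.93 with the fixed block. For tTA minus DN in CA3 minus DG the count was 3 with and without the block, and 2 to 3 without 1 mouse. No member was called in the other pair of differences between subfields under any alternative. Levels of the dim probe sets lie near background, so their differences are uncertain in size.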
